A study of Mus musculus with 21 samples.

Results

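Transcript levels of 43 genes of the cell cycle and of DNA replication were followed across 21 RNA-seq libraries made from cells sorted out of the mouse main olfactory epithelium. The 43 genes were chosen as a named list, with earlier results of these data known. All of them are measured in both deposited tables, among 23587 genes in the larger table and 22918 in the smaller one. For description they were divided by textbook role into 19 genes that act before or during S phase and 24 genes that act in mitosis.

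All mice carried a tTA driver and a tetO construct that the driver switches on. HyperTRIBE is an RNA-editing domain that marks the transcripts a fused protein touches. In the MexHT mice it is fused to Mex3a, an RNA-binding protein, and in the HT mice it is alone. Both constructs carry the mCherry reporter, so that mCherry-positive cells are those in which the driver was active and are called OSN (olfactory sensory neuron) libraries here, and mCherry-negative cells of the same mice are called negative libraries. The larger table holds mice with both gg8-tTA, active in immature neurons, and OMP-tTA, which adds mature neurons. It has 6 MexHT OSN libraries and 5 MexHT negative libraries (genotype gg8tTA; OMPtTA; tetO-Mex3a_HyperTRIBE_mCherry), and 3 HT OSN and 3 HT negative libraries (genotype gg8tTA; OMPtTA; tetO-HyperTRIBE_mCherry). The smaller table holds mice with gg8-tTA alone (genotype gg8tTA; tetO-Mex3a_HyperTRIBE_mCherry), as 2 OSN and 2 negative libraries. No mouse was without HyperTRIBE, and the labels used here give neither age nor strain. Each table comes from 1 library date, so the driver and the date cannot be told apart, and comparisons were made only within a table.

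A cell that divides first makes D-type and E-type cyclins, which free E2F transcription factors from the RB proteins, and E2F then turns on the genes of DNA replication. Licensing factors such as Cdc6 and Cdt1 load the MCM helicase onto replication origins, Gmnn (geminin) restrains Cdt1, and after replication Cdk1 with its cyclins, the Aurora and Polo kinases, the spindle checkpoint, centromere proteins and mitotic kinesins carry the cell through mitosis. In the olfactory epithelium globose basal cells divide throughout life and give rise to sensory neurons, which no longer divide.

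Depth, as whole read counts recovered from the deposited TPM values (transcript levels corrected for gene length and scaled to a common library total), ran from 7529648 to 15358653 per library, and the lowest count of any member in any library was 10, with a median of 272. Mex3a itself was 328 to 1271 TPM in the MexHT OSN libraries against 24.0 to 61.5 TPM in the HT OSN libraries, as their labels would have it. Replicate 5 of the MexHT OSN libraries stood apart from the other 5: the summed level of the 24 mitotic members was 1131 TPM there and 196 to 361 TPM in the others, and the summed level of 10 progenitor markers was 1105 TPM there and 307 to 699 TPM in the others. Replicate 6 stood apart from replicates 1 to 4 too, with progenitor markers at 699 TPM there and 307 to 342 TPM in those. Xist was 58.4 to 139.8 TPM in all MexHT OSN libraries and 0.126, 60.3 and 0.140 TPM in the HT OSN libraries, so that 2 of the 3 HT mice, and none of the MexHT mice of that table, lacked it. Some results that rest on these libraries are given also with 1 of them left out, and no fit left out more than 1. The comparisons share libraries (the MexHT OSN group enters the first, the second and the last), so they are not independent of one another.

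**Figure D1:**
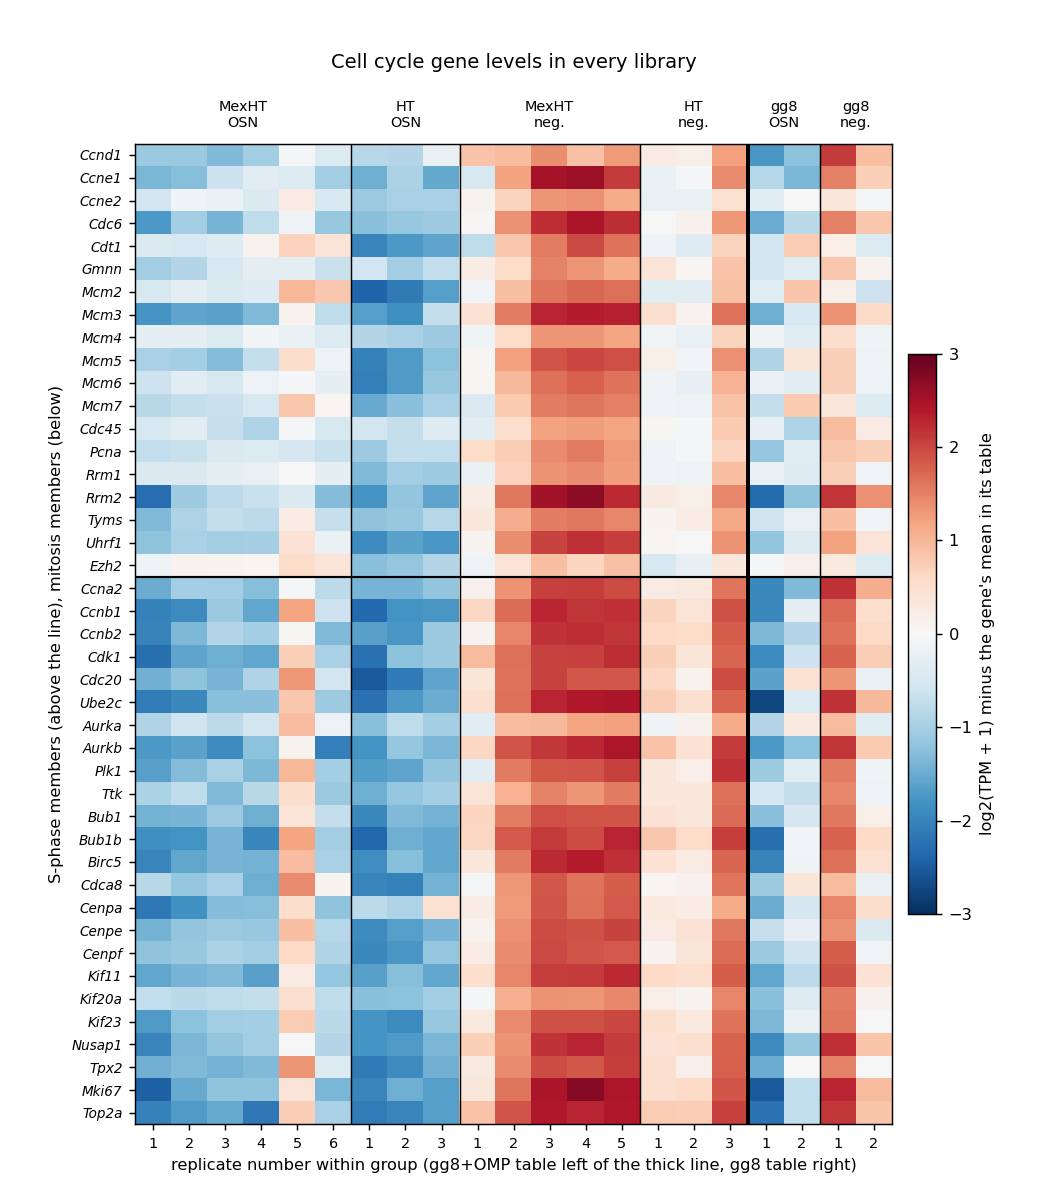
Level of each of the 43 genes (rows, grouped by role) in each of the 21 libraries (columns, grouped by table, construct and fraction), as log2(TPM + 1) minus the gene's mean in its table, with red above and blue below that mean. Most OSN libraries are blue and most negative libraries red, and MexHT OSN replicate 5 is redder in the mitotic rows than the other 5 MexHT OSN libraries.

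The first comparison asks where in the sorted tissue these genes are expressed. In the Mex3a mice with both drivers, 42 of the 43 genes were lower in OSN than in negative libraries, beside 27.6% of all 16522 genes tested (limma on log2(TPM + 1), Benjamini-Hochberg adjusted p below 0.05, which is what "called", "rose" and "fell" mean from here on). The median log2 difference was -2.27 over the 43 genes, -1.54 over the S-phase genes and -2.55 over the mitotic genes, against 0.16 over all genes tested. Without MexHT OSN replicate 5 the medians were -1.60 over the S-phase genes and -2.85 over the mitotic genes. In 16 of the 43 genes every OSN library was below every negative library, beside 19.6% of all genes tested. These are bulk libraries, in which fewer cells of a type and less RNA per cell cannot be told apart.

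Mki67 encodes the proliferation antigen that coats mitotic chromosomes. It was 20.6, 40.3, 50.7, 50.2, 155 and 44.7 TPM in MexHT OSN replicates 1 to 6, and 148, 360.0, 649, 785 and 631 TPM in MexHT negative replicates 1 to 5. The difference was -3.14 ± 0.49 (SE) on the log2(TPM + 1) scale, the scale of every log2 difference here (limma, Benjamini-Hochberg adjusted p = 0.000129). The groups overlapped only through OSN replicate 5, the highest of its group, and negative replicate 1, the lowest of its own. Top2a, the topoisomerase that untangles replicated chromosomes, was 16.1 to 126 TPM (median 24.1) in OSN libraries and 136, 279.6, 398, 368 and 402 TPM in negative libraries, without overlap (-3.23 ± 0.47, limma adjusted p = 7.52e-05). Aurkb, the Aurora kinase of the chromosomal passenger complex, had a difference of -3.27 ± 0.40 (limma adjusted p = 1.83e-05), and Ube2c, the ubiquitin-conjugating enzyme of the anaphase-promoting complex, one of -2.998 ± 0.49 (limma adjusted p = 0.000189).

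Other mitotic genes with high levels showed the same order of fractions. Ccna2, the A-type cyclin, was 13.8 to 38.99 TPM (median 19.4) in MexHT OSN libraries and 44.3, 105, 171, 175 and 161 TPM in the negative libraries. Kif11, the spindle kinesin, was 8.47 to 33.7 TPM (median 10.4) in the OSN libraries and 40.7, 79.2, 123, 124 and 138 TPM in the negative libraries, and neither gene's groups overlapped. Cenpf, a kinetochore protein, was 13.5 to 50.02 TPM (median 15.8) in the OSN libraries and 38.1, 88.7, 131, 123 and 119.8 TPM in the negative libraries, where OSN replicate 5 lay above negative replicate 1.

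The S-phase genes differed more among themselves. Pcna, the sliding clamp of the replication polymerases, was 65.5 to 83.2 TPM (median 72.7) in the OSN libraries and 161, 183, 294, 325 and 269 TPM in the negative libraries, and fell by 1.68 ± 0.17 (limma adjusted p = 4.25e-06). Ccnd1, a D-type cyclin that starts the exit from G1, was 12.9, 12.9, 11.1, 13.8, 28.8 and 21.7 TPM in OSN replicates 1 to 6 and 54.3, 56.5, 78.1, 55.1 and 72.7 TPM in the negative libraries (-1.91 ± 0.23, limma adjusted p = 1.32e-05). Both were lower in every OSN library than in any negative library. Gmnn was 13.6 to 24.2 TPM (median 19.4) in the OSN libraries and 34.1, 43.5, 84.1, 74.2 and 64.1 TPM in the negative libraries, again without overlap.

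Subunits of the same helicase spread widely. Mcm3 was 11.9 to 46.0 TPM (median 15.2) in OSN libraries and 58.5 to 225 TPM in negative libraries, a difference of -2.94 ± 0.40, while Mcm2 was 35.3 to 101 TPM (median 39.3) and 47.1 to 168 TPM, a difference of -1.12 ± 0.38 (limma adjusted p = 0.02002). Cdt1, the licensing factor, differed by -1.06 ± 0.43 (limma adjusted p = 0.0444), and its call was lost in 9 of 19 alternative fits. Ezh2, the histone methyltransferase of the Polycomb complex and the only gene not called, was 109, 132, 129, 128, 181 and 160.0 TPM in OSN libraries and 115, 161, 230.2, 191 and 228 TPM in negative libraries (-0.37 ± 0.19, limma adjusted p = 0.0951). Those ranges overlap over most of their length. With mouse as a block, in which OSN replicate 6 has no partner and adds nothing, Ezh2 was called too (-0.42, limma adjusted p = 0.0171).

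Mice with HyperTRIBE alone gave a similar picture from fewer libraries. There 39 of 43 genes fell, beside 9.11% of the 17027 genes tested, with a median of -2.15 (S-phase genes -1.55, mitotic genes -2.43). In 42 of the 43 genes every OSN library lay below every negative library, beside 18% of all genes tested. Top2a was 16.8, 18.3 and 23.1 TPM in HT OSN libraries and 128, 125 and 314 TPM in HT negative libraries (-3.09 ± 0.36, limma adjusted p = 0.00402). Mki67 was 28.8, 41.8 and 36.7 TPM against 165, 176 and 438 TPM (-2.69 ± 0.38, limma adjusted p = 0.00738). Replicate 3 was the highest of the negative libraries for both genes.

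Here Ezh2, at 50.6, 54.6 and 65.9 TPM in HT OSN libraries and 87.1, 103 and 152 TPM in HT negative libraries, was among the genes that fell (-0.96 ± 0.22, limma adjusted p = 0.0376). Mcm2 fell by 2.13 ± 0.37 (limma adjusted p = 0.0154) and Cdt1 by 1.81 ± 0.30 (limma adjusted p = 0.0137). The 4 genes not called were Ccnd1 (-1.20), Ccne1 (-1.70), Cdc45 (-0.82) and Cenpa (-0.96), and with mouse as a block all 43 were called and the number of all genes called went from 1923 to 4967. The count of members rested on single libraries: it was 9 without HT OSN replicate 1, 12 without HT OSN replicate 2, 16 without HT negative replicate 1 and 27 without HT OSN replicate 3, and voom on the recovered counts called 11. The number of all genes called also moved between these fits, with its range given at the end. So these changes were not shown to be particular to the 43 genes.

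The other abundant members followed the same order in HT mice. Ube2c was 11.5, 16.8 and 20.0 TPM in HT OSN libraries and 97.8, 81.5 and 196 TPM in HT negative libraries. Ccna2 was 14.9, 14.9 and 17.4 TPM against 48.4, 50.1 and 126 TPM, and Kif11 8.41, 11.1 and 8.91 TPM against 43.3, 40.6 and 102 TPM. The OSN libraries of each lay close together and the negative ones were spread by replicate 3. Cenpf was 7.84, 9.05 and 13.9 TPM against 34.2, 41.9 and 106 TPM. Cdca8 was 9.17, 8.75 and 13.9 TPM against 40.5, 42.4 and 121 TPM, and Bub1b 3.07, 6.59 and 6.05 TPM against 35.2, 29.3 and 86.7 TPM. Of the S-phase genes, Mcm7 was 25.6, 30.6 and 37.5 TPM in HT OSN libraries against 68.1, 67.1 and 137 TPM in HT negative libraries, and Mcm6 16.1, 20.7 and 31.3 TPM against 64.2, 58.4 and 145 TPM. Rrm1 was 21.7, 26.8 and 25.9 TPM against 51.1, 50.6 and 105 TPM, and Gmnn 19.3, 13.7 and 17.2 TPM against 38.4, 30.5 and 53.9 TPM. Uhrf1 was 8.78, 10.9 and 9.90 TPM against 36.9, 35.8 and 90.8 TPM.

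In mice with the gg8 driver alone, 9 of 43 genes fell in OSN against negative libraries, beside 7.2% of 16490 genes tested. They were Ccnd1 (-2.98), Pcna (-1.54), Rrm2 (-3.51), Ccna2 (-3.25), Ccnb2 (-2.23), Aurkb (-2.94), Nusap1 (-3.04), Mki67 (-3.24) and Top2a (-2.95), with limma adjusted p from 0.0250 to 0.0462. The median was -0.82 over the S-phase genes and -2.05 over the mitotic genes, and 31 genes had both OSN libraries below both negative libraries, beside 30.2% of all genes. Mki67 was 13.4 and 48.4 TPM in the OSN libraries and 397 and 159 TPM in the negative libraries.

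4 S-phase genes had positive values in this table: Mcm2 (0.48, limma adjusted p = 0.515), Cdt1 (0.20, 0.820), Ezh2 (0.11, 0.839) and Mcm7 (0.07, 0.937). Mcm2 was 70.0 and 162 TPM in the OSN libraries and 99.4 and 58.3 TPM in the negative libraries, so the groups overlapped. With 2 libraries a group these counts are fragile. Leaving out 1 library leaves a single one in its group, so only the medians of those fits are given. They ran from -1.275 to -0.335 over the S-phase genes and from -2.69 to -1.38 over the mitotic genes. With mouse as a block 10 members were called, with Ube2c added. The number of all genes called also moved between alternative fits, as given at the end. So these changes were not shown to be particular to the 43 genes.

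The 2 gg8 OSN libraries were themselves apart in many members, replicate 2 mostly the higher. Ube2c was 7.28 and 40.5 TPM in gg8 OSN libraries and 249.7 and 108 TPM in gg8 negative libraries, Top2a 14.1 and 41.7 TPM against 307 and 125 TPM, and Ccna2 5.62 and 9.04 TPM against 112 and 52.7 TPM. Cdca8 was 23.8 and 65.8 TPM against 99.8 and 43.7 TPM, so that OSN replicate 2 lay above negative replicate 2. Mcm7, at 63.3 and 179 TPM against 132 and 78.3 TPM, and Cdt1, at 21.5 and 55.9 TPM against 37.7 and 24.2 TPM, had their highest library in the OSN fraction. Ezh2 was 182 and 212 TPM against 232 and 143 TPM, and Rrm1 49.2 and 43.9 TPM against 94.9 and 54.4 TPM. In OSN replicates 1 and 2 Mex3a was 460.3 and 1632 TPM and the progenitor markers summed to 527 and 1662 TPM, and their part in these values was not tested. Ccnd1 was 6.17 and 9.29 TPM against 102 and 43.8 TPM, and Pcna 46.8 and 82.0 TPM against 188 and 176 TPM, with both OSN libraries well below the negative ones.

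**Figure D2:**
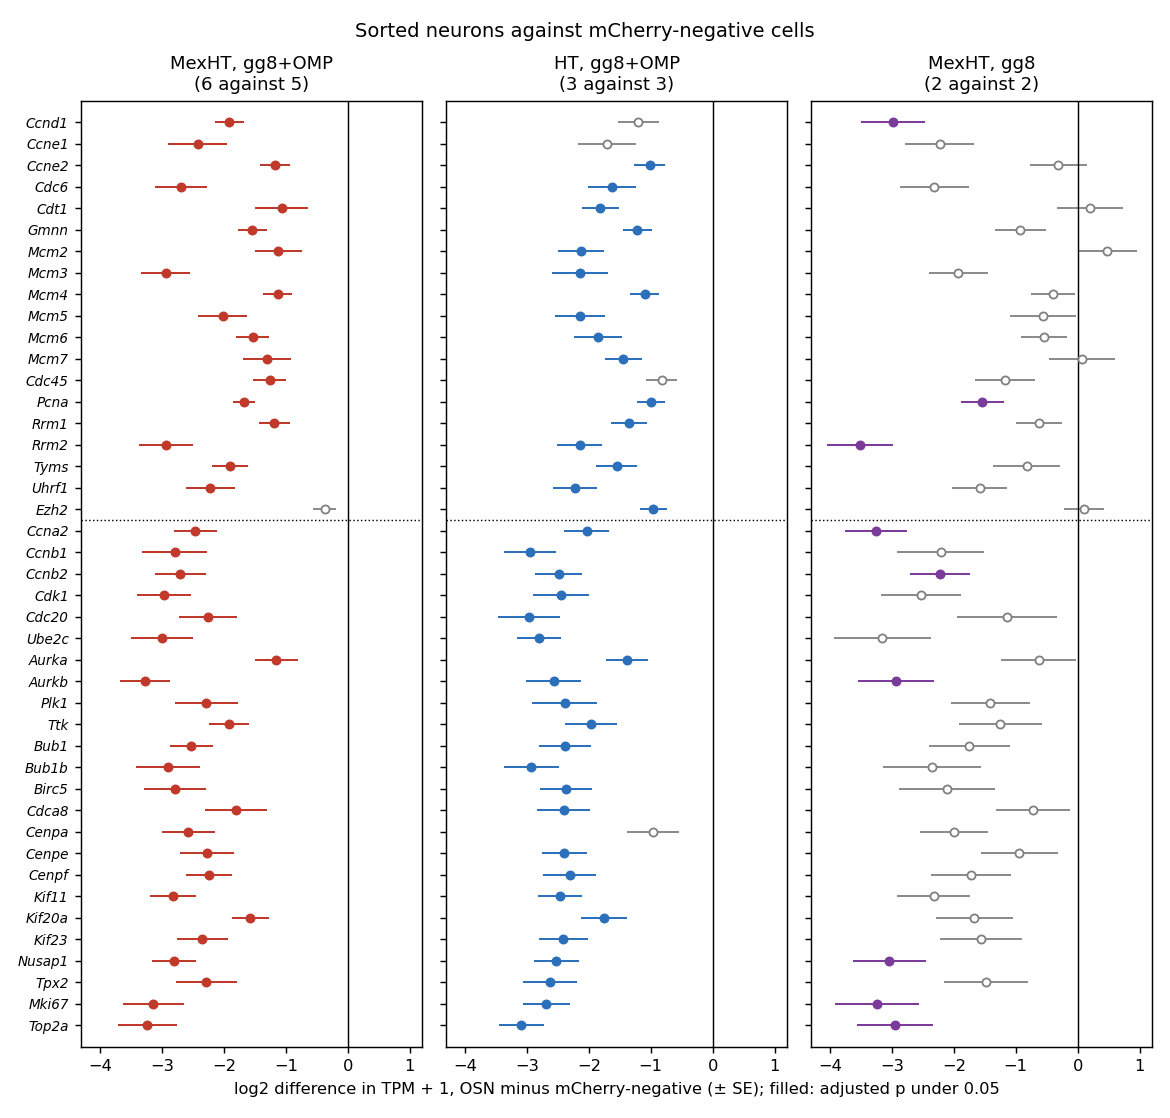
Log2 difference of OSN minus negative libraries for each of the 43 genes (points, with bars of 1 SE from limma) in MexHT mice with both drivers, HT mice with both drivers and MexHT mice with gg8 alone, filled where called. All points lie left of 0 in the panels of mice with both drivers, most mitotic genes farther than most S-phase genes, and Mcm2, Cdt1, Mcm7 and Ezh2 lie right of 0 with gg8 alone.

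Within mice, the OSN library of MexHT mice 1 to 5 held 57.7, 37.4, 23.1, 24.2 and 40.8% of the negative library's summed S-phase TPM, and 21.8, 12.3, 9.36, 8.44 and 36.0% of its summed mitotic TPM. In HT mice 1 to 3 the shares were 39.3, 45.4 and 25.8% for S-phase genes and 18.1, 23.4 and 11.0% for mitotic genes. In the gg8 mice they were 41.0 and 103% for S-phase genes, and 8.37 and 54.1% for mitotic genes. The S-phase share was the larger one in each of these 10 mice.

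The negative libraries hold transcripts of several lineages, blood cell precursors among them. The summed level of 8 granulocyte precursor markers was 1800 to 4359 TPM in MexHT negative and 1050 to 3273 TPM in HT negative libraries, and 25.9 to 40.3 TPM in all OSN libraries of that table. Elane, a defining marker of those precursors, was 302 to 743 TPM in MexHT negative and 1.18 to 3.48 TPM in MexHT OSN libraries. Summed markers of bone and connective tissue were 13856 to 28344 TPM in MexHT negative and 162 to 278 TPM in MexHT OSN libraries, and all 8 granulocyte precursor, 7 neutrophil and 7 bone and connective tissue markers fell in the OSN libraries of both constructs. The globose basal and progenitor markers summed to 734 to 1243 TPM in MexHT negative and 307 to 1105 TPM in MexHT OSN libraries, with 6 of 10 lower. Erythroid precursor markers summed to 196 to 1223 TPM and 66.8 to 209 TPM. Markers of immature neurons summed to 1748 to 3280 TPM in MexHT negative libraries, so neuronal transcripts are in them as well. The part of each lineage in the differences above was not tested.

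Other genes of the cell cycle, from lists of fixed pathways, were read in the same contrast of MexHT OSN with MexHT negative libraries. Over all genes tested in it, 27.6% fell and 35.8% rose. Of 12 further cyclins, their kinases and regulators of those kinases 11 fell, with Ccnd2 (-3.72, limma adjusted p = 3.60e-08) and Cdk6 (-2.93, 3.03e-07) lowest. Of 36 further mitotic genes tested 32 fell, led by the spindle protein Hmmr (-3.09, limma adjusted p = 8.30e-05) and the chromokinesin Kif4 (-2.85, 0.000315). Of 36 further replication genes 20 fell, led by Tk1 (-2.97, limma adjusted p = 1.93e-05) and Mcm10 (-2.72, 0.000113), and 3 rose, among them the origin kinase Cdc7 (0.86, 0.00958) and Orc2 (0.60, 0.000326). Of 20 regulators of cell cycle transcription (RB, E2F, DREAM and MYB-FOXM1 genes) 9 fell, led by E2f8 (-3.06, limma adjusted p = 3.52e-05) and Foxm1 (-2.53, 0.000570), and 4 rose, led by Lin52 (0.78, 0.000122) and E2f5 (0.61, 0.00181).

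The second comparison, between the constructs within OSN libraries, asks what differs when Mex3a is fused to the editing domain. In MexHT OSN against HT OSN libraries 10 of 43 genes rose and none fell, beside 19.9% of 16067 genes tested that rose and 16.8% that fell. The count that rose over all 43 was thus near the share over all genes. All 10 belong to the 19 S-phase genes: Ccne2, Cdt1, Mcm2, Mcm4, Mcm5, Mcm6, Mcm7, Rrm1, Uhrf1 and Ezh2. Of the 24 mitotic genes none was called by limma, and 3 had an unadjusted p below 0.05. Without MexHT OSN replicate 5, 4 mitotic genes were called higher (Cdc20 0.97, Cdca8 0.95, Cenpf 0.56 and Kif20a 0.41) and 1 lower (Cenpa -1.13), so the split by phase rests in part on that library. The difference between the S-phase and the mitotic genes was not itself tested.

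The median log2 difference was 0.70 over the S-phase genes and 0.62 over the mitotic genes, against 0.03 over all genes tested, and 41 of the 43 values were positive. The errors differed more than the values: the median SE was 0.29 over the S-phase genes and 0.46 over the mitotic genes. Without MexHT OSN replicate 5 the medians were 0.66 and 0.26, and the median SE of the mitotic genes was 0.26. In 11 of the 43 genes every MexHT OSN library was above every HT OSN library, which is near the 21.5% of all genes tested.

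**Figure D3:**
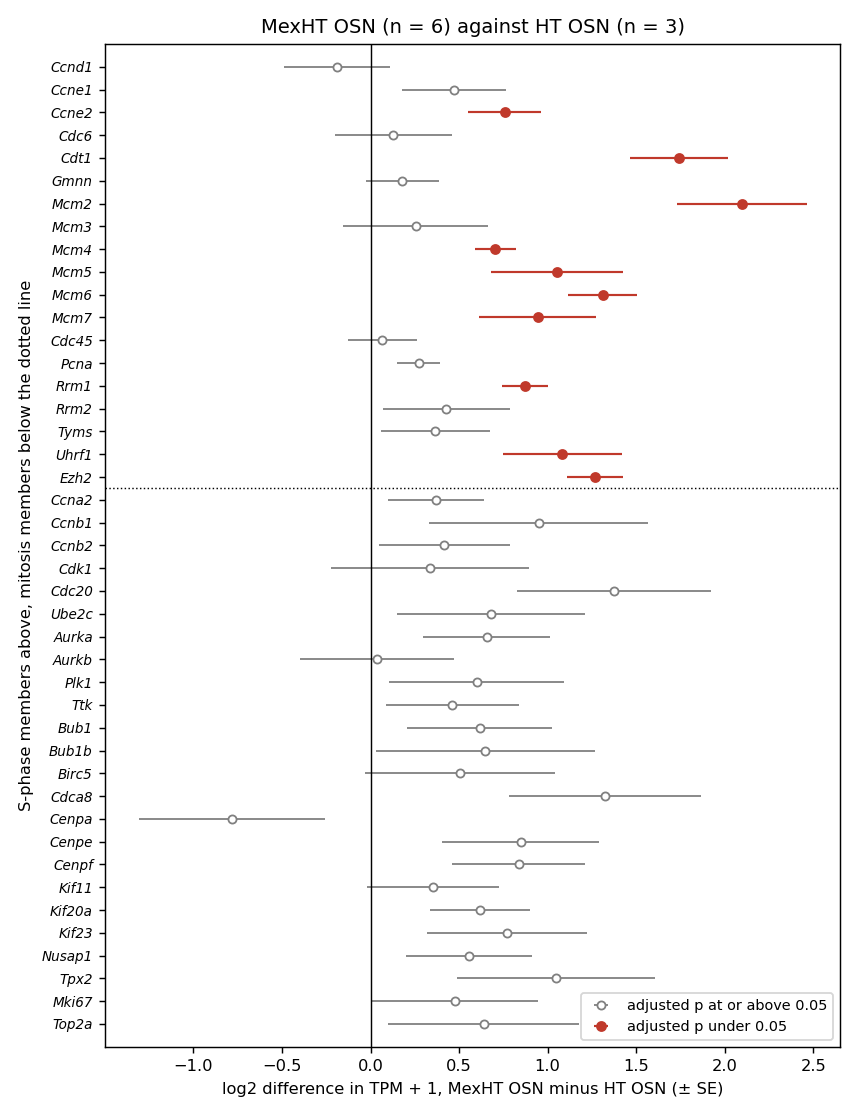
Log2 difference of MexHT OSN minus HT OSN libraries for each of the 43 genes, grouped by role (points, with bars of 1 SE from limma), filled where called. The 10 filled points are all S-phase genes, and the mitotic genes have longer bars around values of like size.

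The replicative helicase is a ring of 6 MCM proteins that unwinds DNA at the fork. Mcm2 was 35.3, 40.7, 36.9, 37.9, 101 and 88.6 TPM in MexHT OSN replicates 1 to 6 and 8.59, 10.7 and 15.2 TPM in HT OSN replicates 1 to 3. The groups were far apart, and the difference was 2.10 ± 0.37 (4.28-fold, limma adjusted p = 0.00210). In MexHT OSN replicates 1 to 4, where Mex3a was 328 to 359 TPM and the progenitor markers summed to 307 to 342 TPM, Mcm2 was 35.3 to 40.7 TPM. It was 88.6 TPM in replicate 6, with Mex3a at 679 and progenitor markers at 699 TPM, and 101 TPM in replicate 5, with 1271 and 1105 TPM. These levels are set side by side for Mcm2 only, and the part of either in its level was not tested.

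Mcm6 was 44.9, 55.4, 49.9, 62.1, 67.2 and 57.9 TPM in MexHT OSN libraries and 16.1, 20.7 and 31.3 TPM in HT OSN libraries (1.31 ± 0.20, 2.48-fold, limma adjusted p = 0.00105). Mcm4 was 35.8 to 45.3 TPM (median 38.96) against 25.5, 23.6 and 21.9 TPM (0.70 ± 0.12, limma adjusted p = 0.00163). Neither gene's groups overlapped, and replicate 5 was not far from the rest for either. Mcm7 was 41.4, 45.5, 46.7, 53.3, 132 and 77.4 TPM against 25.6, 30.6 and 37.5 TPM (0.94 ± 0.33, limma adjusted p = 0.0451). Mcm5 was 16.3, 15.7, 12.9, 19.8, 48.4 and 29.6 TPM against 7.36, 9.51 and 13.4 TPM (1.05 ± 0.37, limma adjusted p = 0.0480), where MexHT replicate 3 lay below HT replicate 3. These last 2 calls are the weakest, kept in 8 and 6 of 18 alternative fits. Mcm3 was 11.9 to 46.0 TPM against 12.9, 11.2 and 25.7 TPM and was not called (0.25, limma adjusted p = 0.651), nor was Cdc45, which joins the ring to the active helicase (0.07, 0.812).

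Among G1 and licensing genes, Cdt1, which brings MCM to origins, was 16.7, 16.0, 17.3, 24.7, 37.7 and 30.0 TPM in MexHT OSN libraries and 5.01, 6.23 and 7.02 TPM in HT OSN libraries. The groups were far apart (1.74 ± 0.28, 3.34-fold, limma adjusted p = 0.00143). Ccne2, an E-type cyclin that drives entry into S phase, was 8.07, 11.6, 10.9, 9.07, 15.1 and 8.91 TPM against 5.42, 5.92 and 5.89 TPM, without overlap (0.76 ± 0.21, limma adjusted p = 0.0168). Ccnd1 was 11.1 to 28.8 TPM (median 13.4) against 15.6, 15.6 and 25.1 TPM, and the HT values lay inside the MexHT range (-0.19 ± 0.30, limma adjusted p = 0.641). Gmnn was 13.6 to 24.2 TPM against 19.3, 13.7 and 17.2 TPM (0.18, limma adjusted p = 0.518), again within the same range. Ccne1 (0.47, limma adjusted p = 0.226) and Cdc6 (0.13, 0.783) were not called.

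Nucleotide supply and the clamp were uneven. Rrm1, the large subunit of ribonucleotide reductase, was 41.0 to 55.8 TPM (median 46.0) in MexHT OSN libraries and 21.7, 26.8 and 25.9 TPM in HT OSN libraries, without overlap (0.87 ± 0.13, 1.83-fold, limma adjusted p = 0.000944). Its partner Rrm2, the small subunit, which is made in dividing cells, was 5.68 to 23.0 TPM (median 16.3) against 8.52, 13.3 and 9.85 TPM and was not called (0.43, limma adjusted p = 0.369). Pcna was 65.5 to 83.2 TPM against 51.6, 66.4 and 65.6 TPM (0.27, limma adjusted p = 0.105), and Tyms, thymidylate synthase, had a value of 0.37 (limma adjusted p = 0.371).

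Of the chromatin genes in the list, both were called. Ezh2 was 109 to 181 TPM (median 131) in MexHT OSN libraries and 50.6, 54.6 and 65.9 TPM in HT OSN libraries, where the lowest MexHT value stood well above the highest HT value (1.27 ± 0.16, 2.41-fold, limma adjusted p = 0.000424). Uhrf1, which carries DNA methylation through replication, was 14.8, 17.5, 16.7, 17.3, 47.6 and 30.5 TPM against 8.78, 10.9 and 9.90 TPM (1.08 ± 0.33, limma adjusted p = 0.0281), and replicate 5 was the highest library.

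Mitotic genes varied more among the MexHT OSN libraries. Cdca8, a subunit of the chromosomal passenger complex, was 21.4, 16.96, 19.3, 13.5, 105 and 41.6 TPM there and 9.17, 8.75 and 13.9 TPM in HT OSN libraries (1.32 ± 0.54, limma adjusted p = 0.0786). Replicate 4 was the only MexHT library below an HT library. Cdc20, the activator of the anaphase-promoting complex, was 5.42 to 42.001 TPM (median 7.45) against 2.05, 3.03 and 4.81 TPM, without overlap, and missed the threshold (1.37 ± 0.55, limma adjusted p = 0.0720). Bub1b, a spindle checkpoint kinase, was 4.78, 5.04, 6.89, 4.36, 46.3 and 9.02 TPM against 3.07, 6.59 and 6.05 TPM (0.65, limma adjusted p = 0.432), where 3 of the 6 MexHT libraries lay below HT replicate 2.

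Ube2c was 12.7, 14.4, 23.7, 23.6, 102 and 26.9 TPM in MexHT OSN libraries against 11.5, 16.8 and 20.0 TPM in HT OSN libraries (0.68, limma adjusted p = 0.335). Mki67 against HT OSN values of 28.8, 41.8 and 36.7 TPM gave 0.48 ± 0.47 (limma adjusted p = 0.444), and Top2a against 16.8, 18.3 and 23.1 TPM gave 0.64 ± 0.54 (0.372). In each of these genes 1 MexHT library, replicate 5, stood far above the rest, and the other 5 spread across or just above the HT values. Cenpa, the centromere histone, was the lowest of the 43 by value: 4.01, 5.32, 7.996, 8.10, 31.0 and 8.61 TPM against 11.9, 10.6 and 29.2 TPM (-0.78 ± 0.53, limma adjusted p = 0.263). All MexHT libraries but replicate 5 were below the lowest HT library.

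**Figure D4:**
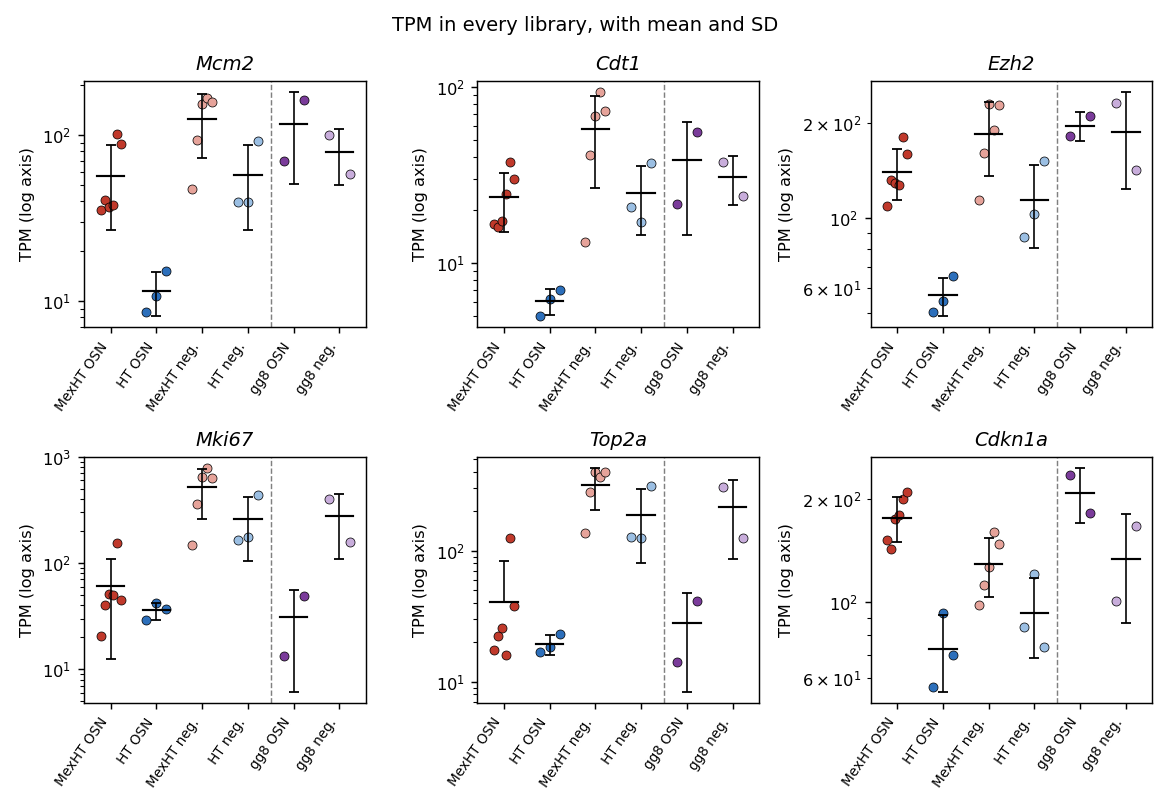
TPM (log axis) of Mcm2, Cdt1, Ezh2, Mki67, Top2a and the CDK inhibitor Cdkn1a in each of the 21 libraries, by group (points are libraries, lines are group means with bars of 1 SD). Mcm2, Cdt1, Ezh2 and Cdkn1a are higher in every MexHT OSN library than in any HT OSN library, while Mki67 and Top2a of these groups overlap and are highest in the negative libraries.

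How firm each call was differed. Cdt1, Mcm2, Mcm4, Mcm6, Rrm1 and Ezh2 were called in 17 of 18 alternative fits, Ccne2 in 15 and Uhrf1 in 11. With HT OSN replicate 1 or 2 left out only those first 6 were called. The exception was the fit with the Xist level as a covariate, in which 0 of the 43 were called by limma (6 at an unadjusted p below 0.05) and 329 genes in all in place of 5907. There Mcm2 was 1.98 (limma adjusted p = 0.138), Cdt1 1.55 (0.127), Mcm6 1.32 (0.0833) and Ezh2 1.23 (0.0619), beside 2.10, 1.74, 1.31 and 1.27 without it. Uhrf1 was 0.74 in place of 1.08. The median was 0.63 in place of 0.70 over the S-phase genes and 0.36 in place of 0.62 over the mitotic genes. HT OSN replicate 2, the HT library with Xist at 60.3 TPM, had Mcm2 at 10.7 and Ezh2 at 54.6 TPM, within the range of the other HT OSN libraries. Its Mcm4, Mcm5, Mcm6, Mcm7 and Cdt1 were within that range too, while its Ccne2, Rrm1 and Uhrf1 were the highest of the HT OSN libraries. The part of Xist in these values was not tested. Of the 43 genes 13 share exon bases with other genes in GENCODE M21, and 10 do so with a protein coding gene. Kif20a (with Cdc23, 1271 bases) and Ccnd1 (with LTO1, 1100 bases) share the most. Of the genes called between the OSN groups, Ccne2, Mcm7 and Ezh2 are among the 13 (with Ints8, Ap4m1 and Cops6, and a lincRNA, respectively). Strand use in counting is not given in the sources used here, so reads of these pairs may be split between them.

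Markers of neuronal maturity differed between these OSN groups as well. Markers of immature neurons summed to 4551 to 5358 TPM in MexHT OSN and 2809 to 3003 TPM in HT OSN libraries, with 7 of 9 higher. Markers of mature neurons summed to 1658 to 5326 TPM and 7312 to 11656 TPM, with 7 of 9 lower and 1 higher. Progenitor markers summed to 307 to 1105 TPM and 216 to 303 TPM, with 3 of 10 higher, and macrophage markers to 170.4 to 351 TPM and 840.2 to 3709 TPM, with 7 of 7 lower. Granulocyte precursor markers did not stand apart, at 25.9 to 40.3 TPM and 32.0 to 38.4 TPM, and none of 7 tested was called. The part of these cell types in the differences of the 43 genes was not tested.

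Of the CDK inhibitors, which hold cyclin-dependent kinases in check, 4 of the 5 tested rose in MexHT OSN libraries, beside 19.9% of all genes tested. Cdkn1a was 142 to 209.7 TPM (median 177) against 56.4, 92.5 and 70.1 TPM in HT OSN libraries, without overlap (1.27 ± 0.17, 2.42-fold, limma adjusted p = 0.000576). Cdkn2d rose by 0.91 ± 0.16 (limma adjusted p = 0.00191), Cdkn2c by 0.85 ± 0.23 (0.0157) and Cdkn1b by 1.16 ± 0.40 (0.0423), the last with overlapping groups. With the Xist level as a covariate none of the 4 was called (limma adjusted p = 0.109 for Cdkn1a, 0.0680 for Cdkn2d, 0.318 for Cdkn2c and 0.222 for Cdkn1b). Cdkn1a and Cdkn2d were called in each of the other 17 alternative fits and Cdkn1b in 9 of 18. Cdkn2c was called in 14 of 18, and was lost also with the replicate block and without HT OSN replicate 1 or 2. Cdkn1c, at 10.5 to 17.7 TPM against 11.2, 15.4 and 17.1 TPM, had a value of -0.03 ± 0.19 (limma adjusted p = 0.908), and Cdkn2a and Cdkn2b were too low to be tested. In the contrast of MexHT OSN with MexHT negative libraries, Cdkn1a (0.46, limma adjusted p = 0.0144) and Cdkn2d (0.33, 0.0435) were higher, while Cdkn1c (-1.90, 6.08e-07), Cdkn2b (-1.36, 0.000123), Cdkn2c (-1.30, 0.000682) and Cdkn1b (-0.95, 0.0114) were lower. The value of Cdkn2b is near the floor, with 1 to 4 recovered reads in MexHT OSN libraries and 9 to 18 in MexHT negative libraries. The call of Cdkn1a in that contrast was lost with median-of-ratios scaling and with voom, and that of Cdkn2d in 14 of 19 alternative fits, mouse as a block among them (0.32, limma adjusted p = 0.0581).

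The remaining pathway lists are to be read against the 19.9% of all genes tested that rose and the 16.8% that fell between the OSN groups. Of these lists, 22 of 36 further replication genes rose between the OSN groups and none fell (median 0.56), led by the clamp loader subunit Rfc3 (1.21, limma adjusted p = 0.000726) and Dbf4, the activator of Cdc7 (1.15, 0.0255). In the other lists the counts that rose were near the share over all genes. Of 36 further mitotic genes tested 8 rose (median 0.59), led by the kinetochore protein Spc25 (1.77, limma adjusted p = 0.00259) and the kinesin Kif18a (1.31, 0.0143). Of 12 further cyclins, their kinases and regulators of those kinases 3 rose, led by Ccnf (1.36, limma adjusted p = 0.0203) and the phosphatase Cdc25b (1.22, 0.00529), and Cdk6 fell by 1.23 (0.00392). Of the 20 RB, E2F, DREAM and MYB-FOXM1 genes 4 rose, led by E2f7 (1.29, limma adjusted p = 0.00754) and E2f5 (0.50, 0.0201), and Rbl2 fell by 0.51 (0.0274).

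Promoters of members were read from RefSeq (GRCm38.p6), in windows from 250 bases before to 50 after each gene's start, with 37 windows for 35 of the 43 genes. 3 sets of letters were searched on both strands: TTCCCGC or TTGGCGC (as E2F sites are often written), TTTGAA or TTCGAA (the cell cycle homology region) and CCAAT. E2F letters stood in 58.8% of S-phase windows, 15% of mitotic windows, 6.81% of all 32851 windows and 10.9% of the 15222 windows of genes tested in MexHT OSN against MexHT negative libraries. The homology region stood in 17.6, 80, 19.2 and 14.5% of these windows, and CCAAT in 76.5, 90, 37.4 and 37.1%. An E2F match overlapped a CCAAT match in 2 member windows. A match is a description of the letters and not a measured site. The 250 bases before the start are shown for 2 of the S-phase genes that rose between the OSN groups and hold E2F letters there, and for 3 mitotic genes with high levels in negative libraries, with matches in capitals.
Mcm6 (chr1:128359706-128359955, minus strand): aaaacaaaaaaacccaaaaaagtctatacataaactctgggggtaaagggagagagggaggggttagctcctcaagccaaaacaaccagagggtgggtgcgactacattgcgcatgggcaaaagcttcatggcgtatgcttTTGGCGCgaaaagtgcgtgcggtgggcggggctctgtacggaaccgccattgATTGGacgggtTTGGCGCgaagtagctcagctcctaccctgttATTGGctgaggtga
Rrm1 (chr7:102441445-102441694, plus strand): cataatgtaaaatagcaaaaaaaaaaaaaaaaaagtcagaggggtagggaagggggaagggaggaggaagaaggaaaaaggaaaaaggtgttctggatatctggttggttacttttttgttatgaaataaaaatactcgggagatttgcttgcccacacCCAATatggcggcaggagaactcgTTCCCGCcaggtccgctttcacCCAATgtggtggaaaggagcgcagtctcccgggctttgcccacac
Mki67 (chr7:135716380-135716629, minus strand): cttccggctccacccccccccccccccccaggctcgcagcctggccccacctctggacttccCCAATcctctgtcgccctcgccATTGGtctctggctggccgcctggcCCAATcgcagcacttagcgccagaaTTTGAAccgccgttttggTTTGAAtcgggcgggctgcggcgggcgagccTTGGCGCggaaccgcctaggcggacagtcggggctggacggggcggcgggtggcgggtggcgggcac
Top2a (chr11:99024190-99024439, minus strand): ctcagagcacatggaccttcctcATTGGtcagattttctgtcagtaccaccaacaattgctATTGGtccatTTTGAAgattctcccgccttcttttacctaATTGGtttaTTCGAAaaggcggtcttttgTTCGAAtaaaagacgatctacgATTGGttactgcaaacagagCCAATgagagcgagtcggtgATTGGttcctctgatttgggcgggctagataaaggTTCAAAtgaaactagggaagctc
Ube2c (chr2:164769679-164769928, plus strand): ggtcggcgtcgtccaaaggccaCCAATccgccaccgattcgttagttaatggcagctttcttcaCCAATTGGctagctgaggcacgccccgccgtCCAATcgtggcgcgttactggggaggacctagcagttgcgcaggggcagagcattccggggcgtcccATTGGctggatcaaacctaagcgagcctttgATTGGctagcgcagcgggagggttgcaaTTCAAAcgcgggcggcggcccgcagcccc
Mcm6 holds TTGGCGC at positions -109 and -46 from the start and Rrm1 holds TTCCCGC at -67, beside CCAAT on either strand. Mki67, with TTTGAA at -116 and -98, also holds TTGGCGC at -67. Top2a holds the homology letters at -179, -140, -120 and -23, and Ube2c at -29. The window of Mcm2, the member with the largest difference between the OSN groups, has no E2F letters and has TTTGAA at -70, and those of Cdt1 and Ezh2 have E2F letters only after the start.

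The third comparison sets the constructs side by side in the negative libraries, the cells sorted as lacking mCherry. None of the 43 genes was called by limma, beside 0% of 16860 genes tested, and 5 had an unadjusted p below 0.05, as had 3465 of all genes. voom on the recovered counts called 0 genes and the fit of all 4 groups 23. All 43 values were positive, with a median of 0.77 (S-phase genes 0.93, mitotic genes 0.73) against -0.01 over all genes tested. Pcna, at 161 to 325 TPM in MexHT negative libraries and 98.3, 108 and 172 TPM in HT negative libraries, had a value of 0.96 ± 0.28 (limma adjusted p = 0.218). Mcm2, at 47.1, 93.7, 153, 168 and 159 TPM against 39.2, 39.7 and 92.3 TPM, had a value of 1.09 ± 0.46 (limma adjusted p = 0.237). MexHT negative replicate 1 was the lowest of its group for both, and without it still 0 of the 43 genes were called.

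Erythroid precursor markers summed to 196 to 1223 TPM in MexHT negative and 118 to 365 TPM in HT negative libraries, progenitor markers to 734 to 1243 TPM and 460.0 to 779 TPM, granulocyte precursor markers to 1800 to 4359 TPM and 1050 to 3273 TPM, and B lymphocyte markers without Ebf1, which neurons express, to 72.9 to 201 TPM and 57.7 to 76.4 TPM. Their part in the positive values was not tested.

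The last comparison asks whether the OSN-to-negative difference depended on the construct, as an interaction term over the 17 libraries of the larger table. None of the 43 genes was called by limma, beside 7.05% of 16785 genes called higher and 5.37% called lower, and 2 had an unadjusted p below 0.05: Pcna (-0.68 ± 0.30, limma adjusted p = 0.153) and Cenpa (-1.61 ± 0.71, 0.150). With median-of-ratios scaling the genes called over the whole table split into 714 higher and 1053 lower, in place of 1184 and 902. Mcm2 had an interaction of 1.01 ± 0.62 (limma adjusted p = 0.305), Ezh2 one of 0.58 ± 0.31 (0.240) and Cdt1 one of 0.75 (0.496). So the higher Mcm2, Cdt1 and Ezh2 of MexHT OSN over HT OSN libraries were not shown to be larger than the values, all positive and none called, between the negative libraries. With mouse as a block Cenpa was called (-1.61, limma adjusted p = 0.0235), as it was without MexHT OSN replicate 5, and Pcna was called without HT negative replicate 3. Of the CDK inhibitors Cdkn2d had a called interaction (0.95 ± 0.23, limma adjusted p = 0.0149), and Cdkn1a had a value of 0.80 (0.0662).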

How the data were processed

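The deposited values are TPM per gene, corrected for gene length and library total, made by the authors and held in 2 tables, 1 for mice with both drivers (17 libraries) and 1 for mice with gg8-tTA alone (4 libraries). Per the labels' protocols, cells were freed with papain, sorted by mCherry, extracted with TRIzol, and made into stranded total RNA libraries with the SMARTer pico kit from 10 ng of RNA. FastQC, cutadapt, STAR, bedtools and the mm10 build are named in the submitters' processing notes, without versions. The program that made the TPM values is not given in the sources used here.

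Groups come from the labels. 27 genes whose names a spreadsheet had turned into dates were left out. Tests ran on log2(TPM + 1) with limma 3.58.1 (trend and moderated spread) in R 4.3.3, for genes averaging 1 TPM or more across the libraries of the fit, and p-values were adjusted by Benjamini-Hochberg over all genes tested, with a threshold of 0.05. A log2 difference with a pseudocount understates the change of low genes, and folds are 2 to the power of that difference. The fit was run on simulated counts with set changes, drawn for independent libraries with 1 common spread. That covered only the comparisons of 2 groups in the larger table. It held no library that stands apart and no pairs, so it cannot tell how the fit behaves with those.

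The steps of the low values gave whole reads for 23614 of 23614 genes in the larger table (100%, within 0.02 of a whole number) and 22778 of 22813 (99.8%) in the smaller. These counts served for depth and for an alternative fit by voom, which called 5697 genes between the OSN groups (2583 higher, 3114 lower), 7 of them members. Reads carry no molecular identifiers in the values used here, so counts bound counting error only.

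OSN and negative libraries of 1 number come from 1 mouse, per the labels, and 1 MexHT OSN library has no partner. Deviations from the group means correlated between the fractions of a mouse at -0.113 to 0.421 in MexHT mice, 0.183 to 0.475 in HT mice and 0.0178 in gg8 mice. Between the negative libraries of the 2 constructs, which are different mice, same-numbered libraries correlated at 0.23 to 0.417, and a block changed no call there. Replicate libraries differed by more than sampling noise (chi-square per degree of freedom 3.335 to 114.5 over 33 pairs). MexHT OSN replicates 1 to 4 differed among themselves by 3.335 to 10.2, and replicate 6 differed from them by 23.4 to 35.28.

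The rule for values by library took Ccnd1, Mki67 and Top2a, the 2 members of each role with the highest mean over the larger table, and members called between the constructs, and of each pathway list the 2 genes with the largest called difference in each direction are named. Other genes named with values in each library (Mcm3, Rrm2, Cdc20, Cenpa, Cdkn1a and Cdkn1c) were chosen after their values were seen. The members and lists were chosen with earlier results of these data known. Alternatives were another pseudocount (0.1), no filter or a mean of 5 TPM, median-of-ratios scaling, scaling without the 100 highest genes, voom, the replicate block, all 4 groups in 1 fit, the Xist level as a covariate, and each library left out.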

Additional observations from a re-analysis of the deposited data

Results flagged for a closer look

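Each member was looked at in the groups of 5 and 6 libraries for a single library far from the others, by the gap to the nearest library as a share of the whole range (Dixon's ratio, 95% level). Chance flags about 1 in 20 groups. There were 86 such groups, 43 of MexHT OSN and 43 of MexHT negative libraries. MexHT OSN replicate 5 was set apart as the highest library in 12 of the first 43. MexHT negative replicate 1 was set apart as the lowest in 5 of the other 43.

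All 12 of the first kind are mitotic genes. The kinesins Kif20a (ratio 0.926, 29.7 TPM), Kif11 (0.753, 33.7 TPM) and Kif23 (0.64, 35.5 TPM) were among them. The centromere and kinetochore genes were Cenpf (0.835, 50.02 TPM), Cenpe (0.758, 43.8 TPM) and Cenpa (0.649, 31.0 TPM). The mitotic kinases were Plk1 (0.747, 27.1 TPM), the checkpoint kinase Bub1b (0.713, 46.3 TPM) and Ttk (0.691, 7.16 TPM). The others were Cdc20 (0.674, 42.001 TPM), the passenger protein Birc5 (0.654, 22.4 TPM) and Ube2c (0.646, 102 TPM).

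In MexHT negative replicate 1 the mitotic genes Aurka (0.806, 16.3 TPM), Plk1 (0.797, 10.2 TPM), Cdc20 (0.765, 21.5 TPM), Kif20a (0.745, 20.3 TPM) and Bub1b (0.722, 31.0 TPM) were the lowest of 5. The same library stood apart in summed markers of several cell types. Horizontal basal markers were 1687 TPM there and 263 to 596 TPM in the other 4 MexHT negative libraries, sustentacular markers 2062.5 TPM and 320 to 583 TPM, ensheathing glia markers 223 TPM and 21.8 to 37.5 TPM, and macrophage markers 411 TPM and 136 to 194 TPM. Granulocyte precursor markers were lowest there, at 1800 TPM against 3217 to 4359 TPM, as were erythroid precursor markers, at 196 TPM against 279 to 1223 TPM, and progenitor markers, at 734 TPM against 836 to 1243 TPM. Their part in the values of the 5 genes was not tested.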

How the results depend on the processing

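Depth limits little here, since no member fell to 3 counts or fewer in any library. The limits are the 3 HT mice, the 2 gg8 mice, 1 MexHT OSN library that stands apart, and driver and Xist, which move with the groups. Of the values of named genes under alternatives that could be set against the reported one, 929 between the OSN groups kept their direction and call, 74 lost the call, 7 gained one and 28 changed sign, and the latter were all of genes not called. In MexHT OSN against negative libraries 1126 kept both, 27 lost the call and 5 gained one. The cause of each change below was not tested.

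Between the OSN groups the Xist covariate left 329 genes and 0 members called, and leaving out each library in turn gave 3745 to 6506 genes and 6 to 15 members. In the negative libraries, without a filter 1 gene was called, with all 4 groups in 1 fit 23, and with 1 library left out 0 to 4. In HT mice voom called 1038 genes and 11 members, the replicate block 4967 genes, and leaving out 1 library gave 660 to 4183 genes and 9 to 42 members. In gg8 mice a pseudocount of 0.1 gave 646 genes and 4 members, a mean of 5 TPM gave 820 genes, and leaving out 1 library gave 0 to 3703 genes, 0 to 7 members and a member median of -2.31 to -0.97. For the interaction, the replicate block called 1 member, and leaving out 1 library gave 1195 to 2483 genes and 0 to 1 members. Scaling by median of ratios moved the median of all genes in MexHT OSN against negative libraries from 0.16 to 0.03.

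Between the OSN groups the replicate numbers mark different mice, and same-numbered libraries correlated at 0.113, 0.133 and -0.234. Same-numbered negative libraries of the constructs correlated at 0.343, 0.417 and 0.23. Whether libraries of 1 number share more than the number was not tested. With the replicate block 4801 genes and 11 members were called, 9 of them shared with the fit without it (Cdca8 gained, Cenpa lower, Mcm5 lost). Signs changed with it for Cdc6 (-0.23), Gmnn (-0.018), Mcm3 (-0.24), Cdk1 (-0.25), Aurkb (-0.30), Birc5 (-0.076), Mki67 (-0.021) and Cdkn1c (0.13). With the Xist covariate they changed for Ccne1 (-0.092), Cdc6 (-0.063), Rrm2 (-0.23), Cdk1 (-0.34), Aurkb (-0.40), Bub1b (-0.018), Birc5 (-0.13), Kif11 (-0.056) and Mki67 (-0.13). With 1 library left out the sign moved for Ccnd1 (-0.35 to 0.027), Cdc6 (-0.055 to 0.27), Cdc45 (-0.026 to 0.15), Cdk1 (-0.046 to 0.55), Aurkb (-0.26 to 0.18) and Cdkn1c (-0.20 to 0.088). In gg8 mice Mcm7 was -0.0084 with median-of-ratios scaling and -0.023 with voom. There, leaving out 1 library moved Cdt1 from -0.47 to 0.87, Mcm2 from -0.12 to 1.08, Mcm5 from -1.19 to 0.076, Mcm7 from -0.67 to 0.81, Ezh2 from -0.24 to 0.46 and Aurka from -1.26 to 0.010. With mouse as a replicate block no member's call changed beyond those named with the fractions and the interaction.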
